A study of Homo sapiens with 12 samples.

Results

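The HSP90 chaperone machinery was followed by its mRNA in THP-1 cells, a human monocytic leukaemia line, across 4 groups of 3 arrays. The set was defined as 10 genes: the chaperones HSP90AA1, HSP90AB1 and TRAP1 and the co-chaperones AHSA1, STIP1, CDC37, PTGES3, CHORDC1, FKBP4 and FKBP5. The genes were chosen with earlier results of these data known. All probe sets (groups of short oligonucleotides that read the same transcript) whose gene symbol in the platform's gene table is one of these were then taken, without regard to their values. Of the 49395 probe sets on the PrimeView array, 28 had only a member's symbol and represented 9 of the 10 genes, out of 18132 genes with such a probe set. No probe set carried the symbol of AHSA1, so its expression was not analysed here, though its promoters are among those searched below. A further probe set carried the symbols of HSP90AB1 and of a pseudogene of it.

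All cells had been differentiated with the phorbol ester PMA at 100 ng/ml for 48 h, a treatment that turns THP-1 monocytes into macrophage-like cells. In the first experiment cells at 40 °C were set against cells at 37 °C. The labels give harvests after 2, 8 and 24 h at 40 °C without saying which of them the arrays represent. In the second experiment, cells differentiated at 40 °C carried a hairpin microRNA inhibitor (the label siThermomir) and were set against cells labelled control and WT. These cells were nucleofected together with a green fluorescent protein plasmid and sorted for green fluorescence 24 h later. The protocol lists inhibitors of miR-142, miR-143 and ThermoMIR-1 and a non-human control inhibitor. Neither the target on these arrays nor the treatment of the control cells with the non-human inhibitor is stated. The group is therefore called inhibitor below. No label says that replicates were separate cultures of this cell line, and p-values therefore cover only array-to-array spread, possibly technical.

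HSP90 is an ATP-driven chaperone that completes the folding of kinases, steroid hormone receptors and other client proteins. HSP90AA1 is known as the more heat-inducible and HSP90AB1 as the more constitutive cytosolic form, and TRAP1 works in mitochondria. Co-chaperones load clients, slow or speed the ATP cycle, or tune particular receptors, and many genes of the machinery are targets of HSF1, the transcription factor of the heat shock response.

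HSF1 binds repeats of GAA and TTC, and the promoters of the members were searched for them because the results below compare 2 temperatures. RefSeq promoters (GRCh38.p14, from 250 bases before to 50 bases after each annotated start) were matched by symbol for 9 of the 10 members, with 15 promoters in all. FKBP4 was not matched. The pair GAANNTTC was sought on both strands, and so was the triplet that adds a further repeat, GAANNTTCNNGAA or TTCNNGAANNTTC. The pair lies within every triplet. The pair in the other order, TTCNNGAA, was not sought on its own and can stand unmarked in lower case. Of all 35116 promoters, 6.77% held the pair and 0.49% the triplet. Of the 15 member promoters, 3 held both, and they belonged to HSP90AA1, HSP90AB1 and CHORDC1. The 250 bases before those starts are printed 5′ to 3′ in the direction of the gene, with the matches in capitals.
HSP90AA1, chr14:102087045-102087294, minus strand: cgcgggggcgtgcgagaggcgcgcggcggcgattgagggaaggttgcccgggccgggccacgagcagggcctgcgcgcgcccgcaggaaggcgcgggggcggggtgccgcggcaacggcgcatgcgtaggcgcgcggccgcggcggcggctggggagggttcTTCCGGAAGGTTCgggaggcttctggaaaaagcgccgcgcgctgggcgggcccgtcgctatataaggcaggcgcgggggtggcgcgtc
HSP90AB1, chr6:44247693-44247942, plus strand: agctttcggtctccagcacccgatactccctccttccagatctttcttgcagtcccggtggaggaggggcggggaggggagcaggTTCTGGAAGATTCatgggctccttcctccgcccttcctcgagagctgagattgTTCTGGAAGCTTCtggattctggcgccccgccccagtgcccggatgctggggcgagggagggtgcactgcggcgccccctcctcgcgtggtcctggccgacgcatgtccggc
CHORDC1, chr11:90223050-90223299, minus strand: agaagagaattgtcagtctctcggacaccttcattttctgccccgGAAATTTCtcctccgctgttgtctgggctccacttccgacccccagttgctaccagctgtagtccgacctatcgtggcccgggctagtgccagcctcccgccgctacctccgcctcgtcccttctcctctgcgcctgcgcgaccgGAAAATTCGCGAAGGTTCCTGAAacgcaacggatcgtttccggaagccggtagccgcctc
In HSP90AA1 the triplet began 88 bases before the start. HSP90AB1 had a triplet at 165 and another at 112 bases before its start. In CHORDC1 a lone pair began 205 bases before the start, and overlapping triplets began at 60, 55 and 50 bases before it. The other annotated starts of HSP90AA1 and HSP90AB1 held neither string. These are matches of letters in a window and show no binding.

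The deposited values are on a log2 scale, so a difference of 1 is a 2-fold difference. The arrays had medians of 5.72 to 5.87, and Pearson r over all probe sets was 0.9939 to 0.9984 within groups. Between 40 °C and 37 °C arrays it was 0.9926 to 0.9935, and between inhibitor and control arrays 0.9782 to 0.9856. All 9 macrophage markers examined, CD68, LYZ and TYROBP among them, passed the filter on low values. Of the markers of other cell types with a probe set, 3 of 5 erythroid, 4 of 6 lymphocyte and 5 of 8 fibroblast or epithelial markers also passed it. The highest were TFRC (mean 12.04), which dividing cells in general express, NKG7 (6.81) and PDGFRB (6.03), while HBZ, KLF1, CD3D, MS4A1, EPCAM, CDH1 and DCN did not pass. As these are bulk samples, fewer cells of a type and less RNA per cell cannot be told apart.

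At 40 °C most of the machinery was higher than at 37 °C. The question was which messages differed in cells held at a fever-range temperature. Each gene was represented by its brightest probe set and tested with limma among 13909 genes, with Benjamini-Hochberg adjustment and a threshold of 0.05. Of the 9 members, 7 rose, FKBP5 fell and TRAP1 did not pass the test. Differences were widespread: 39.3% of all genes passed, 21.6% upward and 17.7% downward. The median difference was 0.34 over the members and 0.01 over all genes. The arrays of the groups did not overlap for any of the 9 members, which held for 49.5% of all genes (27% upward). FKBP4 and CHORDC1 rose more than 2-fold, while HSP90AA1 and HSP90AB1 rose by less. Of the 9 macrophage markers 6 rose and 2 fell, and their summed log2 level was 94.35 to 95.17 at 40 °C and 93.02 to 93.25 at 37 °C; their part in the member differences was not tested.

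**Figure D1:**
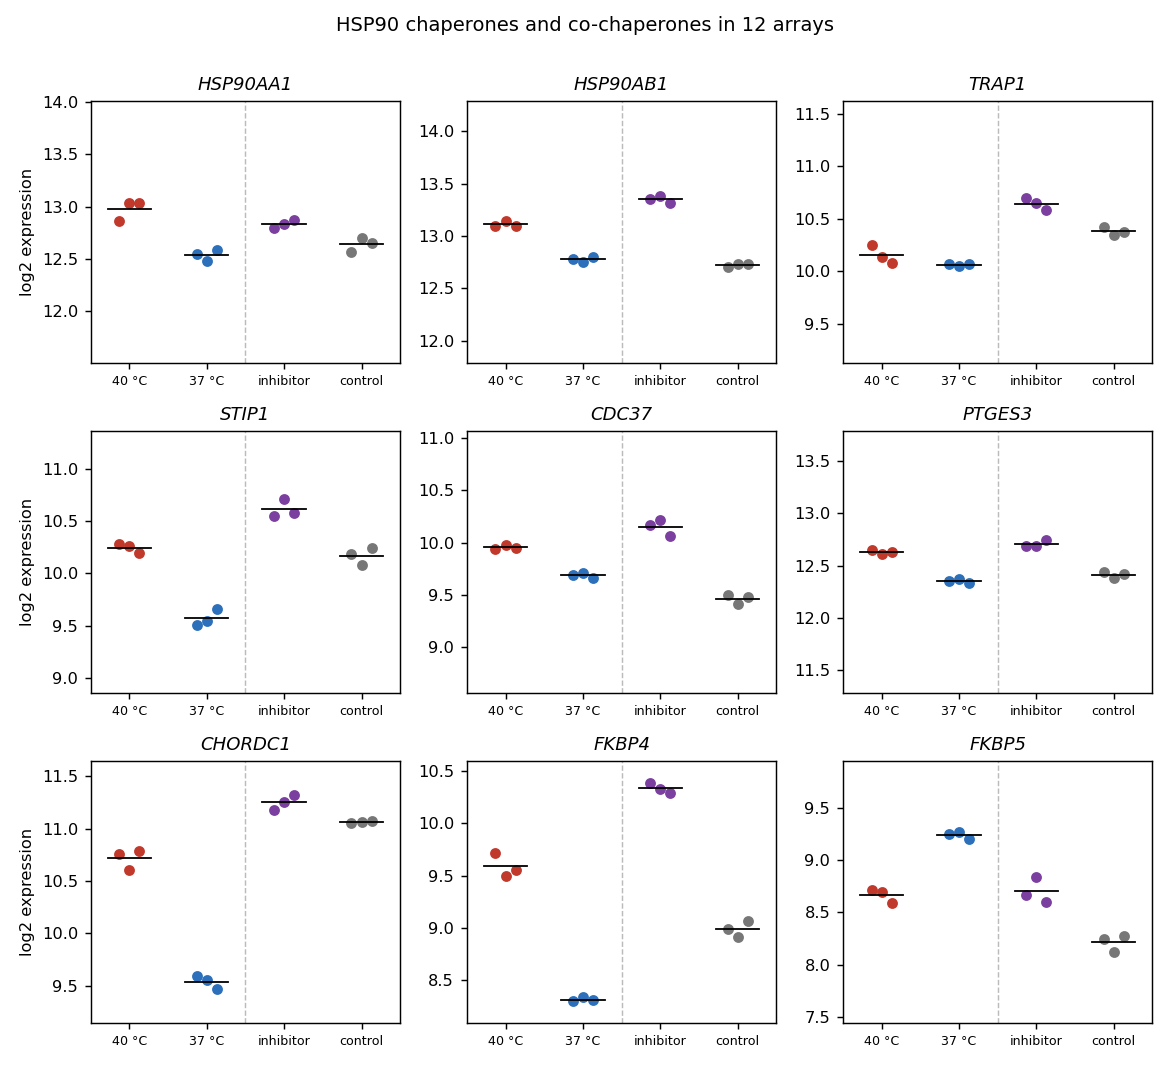
Log2 expression of the 9 members on each of the 12 arrays. Points are arrays and bars are group means, with 40 °C left of 37 °C and inhibitor left of control in each panel. FKBP4 and CHORDC1 are separated most between 40 °C and 37 °C, and FKBP5 is the member that is lower at 40 °C.

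Among the chaperones, HSP90AA1 had log2 levels of 12.86, 13.04 and 13.04 at 40 °C, against 12.55, 12.48 and 12.59 at 37 °C. Every array at 40 °C was above every array at 37 °C. The difference was 0.44 (95% confidence interval 0.29 to 0.59), or 1.36-fold, with an adjusted p of 0.000975 in limma. HSP90AB1 had 13.10, 13.14 and 13.10 at 40 °C, against 12.78, 12.75 and 12.80 at 37 °C. Its arrays were also separated, with a difference of 0.34 (0.24 to 0.43), 1.26-fold, and an adjusted p of 0.000527. TRAP1, the mitochondrial paralogue, had 10.25, 10.14 and 10.08 at 40 °C, against 10.07, 10.05 and 10.07 at 37 °C. The lowest array at 40 °C stood just above the highest at 37 °C, and the difference of 0.09 (−0.03 to 0.22) did not pass the test (adjusted p = 0.217).

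STIP1, also known as HOP, holds HSP70 and HSP90 together while a client is handed over. Its levels were 10.28, 10.26 and 10.20 at 40 °C, against 9.51, 9.55 and 9.66 at 37 °C. The groups were well separated, by 0.67 (0.55 to 0.80) or 1.59-fold, with an adjusted p of 6.53e-05 in limma. CDC37, the adaptor that brings protein kinases to HSP90, had 9.94, 9.98 and 9.95 at 40 °C, against 9.69, 9.71 and 9.66 at 37 °C. This was a rise of 0.27 (0.17 to 0.37), 1.21-fold, with little spread in either group (adjusted p = 0.0015).

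PTGES3, known as p23, stabilises the closed, ATP-bound form of HSP90. It had 12.65, 12.61 and 12.63 at 40 °C, against 12.35, 12.37 and 12.33 at 37 °C. The rise of 0.28 (0.18 to 0.38), 1.21-fold, was of the size seen for CDC37 and passed the test (adjusted p = 0.00119 in limma). With the arrays' poly-A spike level as a covariate, PTGES3 and CDC37 no longer passed (adjusted p = 0.0651 and 0.0773). Their differences were then 0.25 and 0.24. The spike level differed by temperature too, 7.96 ± 0.04 at 40 °C and 7.87 ± 0.03 at 37 °C. Here and below, this fit therefore separates temperature from spike level only in part. CHORDC1, or morgana, is a zinc-binding partner of HSP90. Its levels were 10.76, 10.60 and 10.79 at 40 °C, against 9.59, 9.55 and 9.47 at 37 °C. It rose by 1.18 (1.03 to 1.33), 2.27-fold, with an adjusted p of 1.15e-05, and was 84th of the 13909 genes by size of difference.

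FKBP4 and FKBP5 are paralogous immunophilins that compete for the same docking site on HSP90 in steroid receptor complexes. FKBP4 (FKBP52) is known to favour the activity of the glucocorticoid receptor, and FKBP5 (FKBP51) to dampen it. FKBP4 had 9.72, 9.50 and 9.55 at 40 °C, against 8.30, 8.34 and 8.31 at 37 °C. It rose by 1.27 (1.13 to 1.42), or 2.42-fold, with an adjusted p of 8.13e-06 in limma, and was 68th of the 13909 genes by size. FKBP5 went the other way, with 8.71, 8.69 and 8.59 at 40 °C, against 9.25, 9.27 and 9.20 at 37 °C. It fell by 0.58 on the log2 scale, or 1.49-fold (interval −0.69 to −0.46, adjusted p = 9.65e-05).

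**Figure D2:**
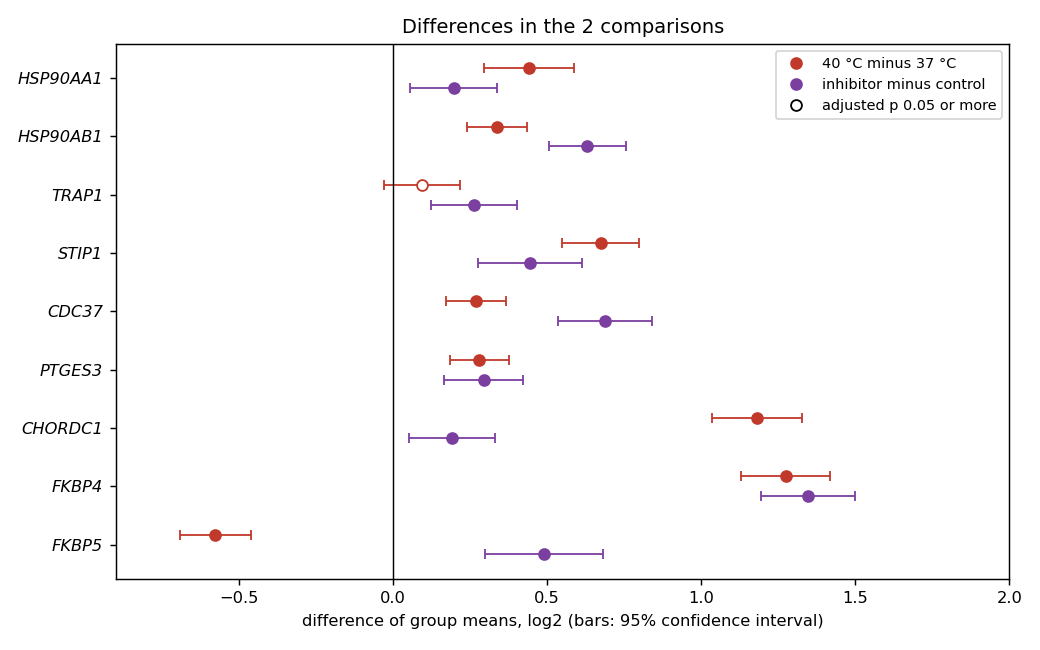
Difference in log2 expression for each member, 40 °C minus 37 °C and inhibitor minus control, with 95% confidence intervals from limma; the open point did not pass the test. FKBP5 lies below 0 at 40 °C and above 0 with the inhibitor, and FKBP4 is far above 0 in both.

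The balance of the immunophilins was taken within each array as FKBP5 minus FKBP4. That difference averaged −0.93 ± 0.10 at 40 °C and 0.92 ± 0.03 at 37 °C (SD, n = 3 each). The shift of −1.85, or 3.60-fold, separated all arrays at 40 °C from all at 37 °C. Its exact two-sided permutation p was 0.1, the smallest that 3 arrays against 3 can give. Taken over the mean of all probe sets, dim ones included, the shift was −1.11. For the cytosolic chaperones, HSP90AA1 minus HSP90AB1 averaged −0.13 ± 0.09 at 40 °C and −0.24 ± 0.03 at 37 °C (SD, n = 3 each). These groups overlapped and the shift of 0.10 had an exact permutation p of 0.3. With the mean of the probe sets the shift was 0.06 and the exact p 0.1, the smallest possible, so this small shift was separated or not depending on the probe sets used. Since levels of different probe sets cannot be compared, these within-array differences are read only between groups.

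**Figure D3:**
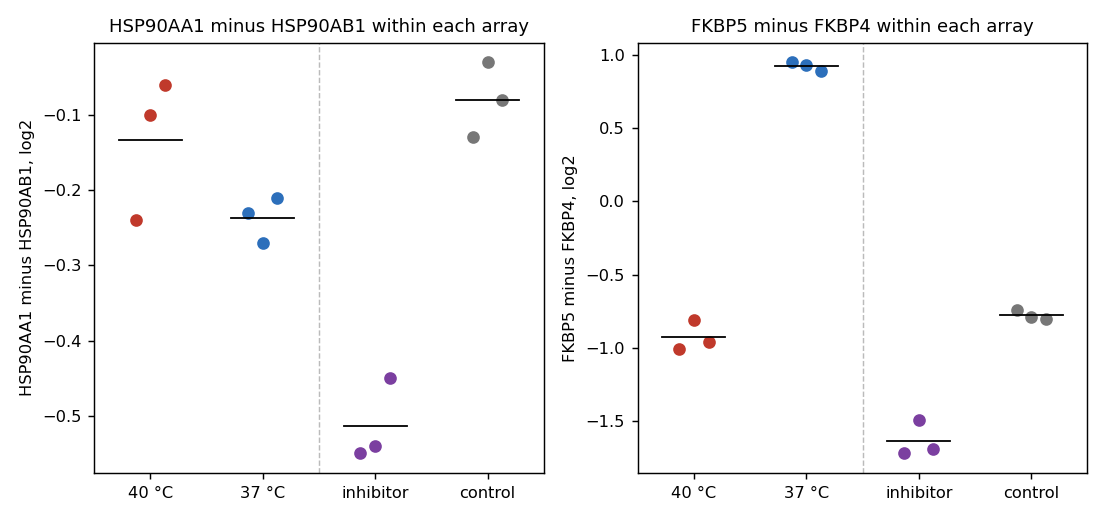
Within-array differences in log2 expression, HSP90AA1 minus HSP90AB1 and FKBP5 minus FKBP4, on each of the 12 arrays, with bars at the group means. The FKBP5 minus FKBP4 difference is lower on every array at 40 °C than on any at 37 °C.

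The other probe sets of the members were tested among 31682 probe sets that passed the filter, of which 37.5% were called at 40 °C against 37 °C. Of the members' 28 probe sets, 24 passed the filter. The 4 others, 1 of FKBP4 and 3 of FKBP5, were too dim to test. Of the 24, 19 were higher at 40 °C, 2 were lower and 3 were not called. The share of all probe sets called higher was 19.9% and lower 17.6%. The arrays did not overlap for 23 of the 24, against 48.5% of all probe sets (25.8% upward). The fainter HSP90AA1 probe set, designed on a RefSeq record of the longer isoform, had 10.39, 10.27 and 10.29 at 40 °C, against 9.93, 10.02 and 9.95 at 37 °C. It rose by 0.35 (adjusted p = 0.00165 in limma), close to its brighter partner.

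The dimmer FKBP4 probe set had 7.50, 7.45 and 7.50 at 40 °C, against 6.48, 6.53 and 6.33 at 37 °C, a rise of 1.04 (adjusted p = 2.36e-05 in limma). The next FKBP5 probe set had 7.45, 7.39 and 7.34 at 40 °C, against 7.79, 7.98 and 7.81 at 37 °C. It fell by 0.47 (adjusted p = 0.000974), and the faintest FKBP5 probe set tested differed by −0.13 without passing (adjusted p = 0.0805). The immunophilins thus had the same directions on each of their tested probe sets. The second STIP1 probe set rose by 0.63, and the remaining 3 of PTGES3 rose by 0.30 to 0.35. CHORDC1, with 8 probe sets, had 7 that rose and 1 that did not pass, with differences of 0.19 to 1.38. The probe set that reads HSP90AB1 together with its pseudogene differed by 0.33.

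**Figure D4:**
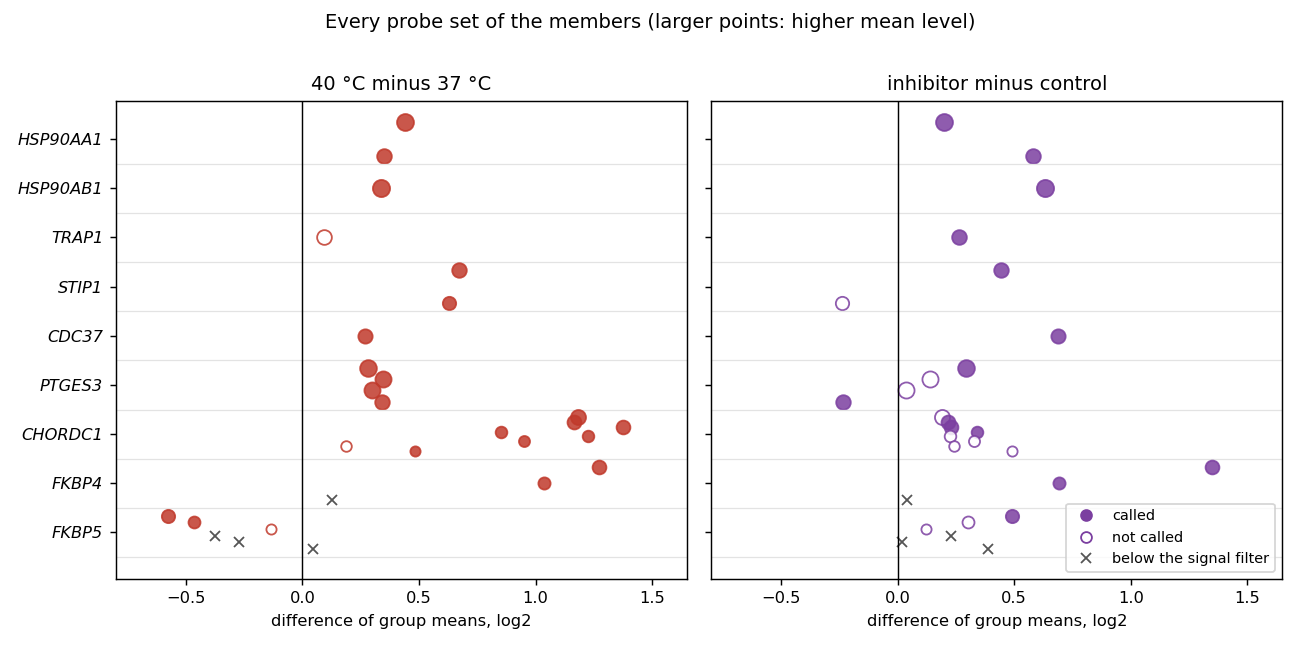
Difference in log2 expression for the members' 28 probe sets, by gene, for 40 °C minus 37 °C and inhibitor minus control; filled points were called, open points were not, crosses are the 4 dim ones not tested, and larger points have higher mean levels. All tested probe sets of FKBP4 lie above 0 and all of FKBP5 below 0 at 40 °C, whereas those of STIP1 and PTGES3 fall on both sides of 0 with the inhibitor.

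With the inhibitor, all 9 members were called higher than in control cells. The question here was what differed in cells carrying the inhibitor at 40 °C. The members' folds ran from 1.14 for CHORDC1 to 2.54 for FKBP4. Calls were again common, with 45.2% of all genes past the threshold, 25.6% upward and 19.6% downward. The median difference was 0.44 over the members and 0.09 over all genes. The arrays of the groups did not overlap for any of the 9 members, against 54.1% of all genes (31.2% upward). FKBP4 was the only member above 2-fold.

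Control quantities moved with these groups. The 12 poly-A spike probe sets, which read bacterial RNAs added as controls, averaged 5.87 ± 0.32 on inhibitor arrays and 7.22 ± 0.37 on control arrays (SD, n = 3 each). At 40 °C and 37 °C they averaged 7.96 ± 0.04 and 7.87 ± 0.03. With the spike level as a covariate in limma, FKBP4 was the only member still called, and the other member calls were lost with adjusted p of 0.0902 to 0.832. The spike level itself differed between these groups, so that fit can hardly tell a group difference from a spike difference. Lost calls alone therefore do not show smaller differences. Some grew with the covariate, to 0.70 for HSP90AB1 and 0.73 for CDC37, from 0.63 and 0.69. Others shrank, to 0.18 for PTGES3 and 0.09 for CHORDC1, from 0.29 and 0.19. Of the 9 macrophage markers, 7 fell and 1 rose with the inhibitor, and their summed log2 level was 88.62 to 89.48 on inhibitor arrays and 94.22 to 94.82 on control arrays. LYZ, which encodes lysozyme, averaged 7.98 in inhibitor cells and 10.32 in control cells. The lymphocyte marker NKG7 averaged 7.46 in inhibitor cells and 6.49 in control cells, and the summed level of the 6 lymphocyte markers was 30.94 to 32.89 on inhibitor arrays and 30.09 to 31.15 on control arrays, which overlap. The part of the spikes and of these markers in the member differences was not tested.

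Of the cytosolic chaperones, HSP90AB1 had the larger difference in this experiment. HSP90AB1 had 13.35, 13.38 and 13.32 on inhibitor arrays, against 12.70, 12.73 and 12.73 on control arrays. The groups were far apart for their spread, by 0.63 (0.50 to 0.76) or 1.55-fold, with an adjusted p of 0.000118 in limma. HSP90AA1 had 12.80, 12.84 and 12.87 on inhibitor arrays, against 12.57, 12.70 and 12.65 on control arrays. The difference of 0.20 (0.05 to 0.34), 1.15-fold, was just past the threshold (adjusted p = 0.0321). It was lost when control replicate 1 or 3, or any of the 3 inhibitor replicates, was left out, with adjusted p of 0.0515 to 0.109, and when no filter on low values was set (0.0524).

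The within-array difference HSP90AA1 minus HSP90AB1 averaged −0.51 ± 0.06 with the inhibitor and −0.08 ± 0.05 in control cells (SD, n = 3 each). The shift of −0.43, 1.35-fold, left no overlap, with an exact permutation p of 0.1, the smallest possible, and was −0.24 with the mean of the probe sets. The fainter HSP90AA1 probe set did not show the same gap. It had 10.62, 10.71 and 10.65 on inhibitor arrays, against 10.14, 10.01 and 10.09 on control arrays. Its difference of 0.58 (adjusted p = 0.000483 in limma) was near that of HSP90AB1, and the mean of both HSP90AA1 probe sets differed by 0.39. The gap between HSP90AA1 and HSP90AB1 thus depended on the probe set. TRAP1 had 10.70, 10.65 and 10.58 on inhibitor arrays, against 10.42, 10.35 and 10.37 on control arrays. It rose by 0.26 (0.12 to 0.40), 1.20-fold (adjusted p = 0.00905).

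CDC37 had 10.17, 10.22 and 10.06 on inhibitor arrays, against 9.50, 9.41 and 9.48 on control arrays. It rose by 0.69 (0.53 to 0.84), 1.61-fold, with an adjusted p of 0.000191 in limma. This was the largest rise among the members after FKBP4. STIP1 had 10.55, 10.71 and 10.58 on inhibitor arrays, against 10.19, 10.08 and 10.24 on control arrays, a rise of 0.44 (0.27 to 0.61) with an adjusted p of 0.00201. Its second probe set had 9.06, 9.38 and 8.70 on inhibitor arrays, against 9.58, 9.03 and 9.24 on control arrays. There the groups overlapped, the difference was −0.24 and the test was not passed (adjusted p = 0.353). Averaged over both probe sets, STIP1 differed by 0.10 and was not called (adjusted p = 0.490).

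PTGES3 had 12.69, 12.69 and 12.74 on inhibitor arrays, against 12.44, 12.38 and 12.42 on control arrays. The brightest probe set rose by 0.29 (0.17 to 0.42), 1.23-fold, with an adjusted p of 0.00374 in limma. The other PTGES3 probe sets differed from it: 2 had differences of 0.14 and 0.04 and were not called, and the faintest fell by 0.23 (adjusted p = 0.0465). The mean of the 4 differed by 0.06 (adjusted p = 0.408), so the direction for PTGES3 depended on the probe set. All 4 are of types that Affymetrix marks as matching several or highly similar transcripts, and PTGES3 has close pseudogene copies. The brightest probe sets of HSP90AA1, FKBP4, FKBP5 and CDC37 are of these types too.

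CHORDC1 had 11.18, 11.25 and 11.32 on inhibitor arrays, against 11.05, 11.06 and 11.07 on control arrays. The groups were separated by a small margin, with a difference of 0.19 (0.05 to 0.33) and an adjusted p of 0.0346 in limma. Leaving out any of the 3 control replicates, or inhibitor replicate 2 or 3, ended the call, with adjusted p of 0.0532 to 0.101. Centring the arrays on their medians also ended it (adjusted p = 0.0631), as did testing without the filter on low values (0.0566). Of its 8 probe sets 3 were called higher, and all 8 differences lay between 0.19 and 0.49. The brightest, which gave the call of the gene, was not among the 3 when adjusted over all probe sets (adjusted p = 0.0522 in limma). The 2.27-fold difference of CHORDC1 between the temperatures was larger, though the experiments were not tested against each other.

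FKBP4 had 10.39, 10.33 and 10.29 on inhibitor arrays, against 8.99, 8.91 and 9.07 on control arrays. The rise of 1.35 (1.19 to 1.50), 2.54-fold, had an adjusted p of 1.44e-05 in limma. Its dimmer probe set rose by 0.69 (adjusted p = 0.00106), so the size, though not the direction, differed between probe sets. FKBP5 had 8.67, 8.84 and 8.60 on inhibitor arrays, against 8.25, 8.12 and 8.27 on control arrays. It rose by 0.49 (0.30 to 0.68), 1.40-fold (adjusted p = 0.00224), the opposite direction to the temperature comparison. The fainter FKBP5 probe sets differed by 0.30 and 0.12 and did not pass (adjusted p = 0.0567 and 0.272). FKBP5 minus FKBP4 averaged −1.63 ± 0.13 with the inhibitor and −0.78 ± 0.03 in control cells (SD, n = 3 each). The shift of −0.86, 1.81-fold, had the smallest possible exact permutation p of 0.1, and was −0.44 with the mean of the probe sets.

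Over the 24 tested member probe sets, 13 were higher with the inhibitor, 1 was lower and 10 were not called. Among all probe sets 43.3% were called, 21.3% upward and 22% downward. The member groups did not overlap for 18 of the 24, against 53.4% of all probe sets (27.2% upward). The count of 13 fell to 8 without control replicate 2, without control replicate 3 or without inhibitor replicate 1. The probe set that reads HSP90AB1 with its pseudogene differed by 0.61, close to that of HSP90AB1 alone.

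Across the 4 groups the members differed in their order. The experiments differ in handling, so neighbours from different experiments were not tested against each other. HSP90AA1 was highest at 40 °C (12.98 ± 0.10), then with the inhibitor (12.84 ± 0.04), in control cells (12.64 ± 0.07) and at 37 °C (12.54 ± 0.06), all SD with n = 3. The first pair and the last pair of neighbours overlapped. HSP90AB1 and CDC37 were highest with the inhibitor, then at 40 °C, at 37 °C and in control cells. For both, the inhibitor's own control group, which was also kept at 40 °C, had the lowest level. FKBP4, STIP1 and PTGES3 were highest with the inhibitor, then at 40 °C, in control cells and at 37 °C, and STIP1 arrays overlapped between 40 °C and control cells.

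The group means of FKBP4 spanned 2.02 on the log2 scale, whereas those of PTGES3 spanned 0.36. CHORDC1 averaged 11.25 ± 0.07 with the inhibitor, 11.06 ± 0.01 in control cells, 10.72 ± 0.10 at 40 °C and 9.54 ± 0.06 at 37 °C. Its 37 °C arrays lay below all arrays of the 3 groups at 40 °C, which also held for FKBP4, STIP1, PTGES3 and TRAP1. FKBP5 was highest at 37 °C (9.24 ± 0.04), then with the inhibitor (8.70 ± 0.12), at 40 °C (8.66 ± 0.06) and in control cells (8.21 ± 0.08). All 3 groups kept at 40 °C were below it, and arrays of the inhibitor and 40 °C groups overlapped. TRAP1 was highest with the inhibitor, then in control cells, at 40 °C and at 37 °C.

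A list of 35 further genes of the HSP90 machinery was examined, of which 32 were tested. This list and those below were chosen with earlier results of these data known, so their shares are descriptive. At 40 °C 16 of the 32 (50%) rose, 3 (9.38%) fell and 13 did not pass, against 21.6% and 17.7% of all genes called higher and lower. Their median difference was 0.15, against 0.01 over all genes. PPID, or cyclophilin 40, another immunophilin of HSP90, averaged 9.74 at 40 °C and 8.45 at 37 °C. This was a rise of 1.29, 2.44-fold, with an adjusted p of 2.89e-06 in limma, close to the fold of FKBP4. CNPY3, which assists the endoplasmic reticulum HSP90 with Toll-like receptors, rose 1.59-fold. FLCN, the folliculin tumour suppressor, rose 1.55-fold, and HACD3, which carries a p23-like domain, rose 1.40-fold. As the mean of its probe sets FLCN differed by 0.30, against 0.63 on its brightest. The largest difference in the list was a fall, that of ITGB1BP2, by 1.33 or 2.52-fold (adjusted p = 0.000775 in limma). It averaged 4.79 at 40 °C and 6.12 at 37 °C, the former near the filter level of 4.48. HSP90B1, the HSP90 of the endoplasmic reticulum, averaged 13.34 at 40 °C and 13.40 at 37 °C and was not called (difference −0.06, interval −0.16 to 0.04, adjusted p = 0.314), though limma's trend and robust options gave an adjusted p of 0.0384. HSF1 averaged 8.42 at 40 °C and 8.15 at 37 °C, a rise of 0.27 (adjusted p = 0.00542), which was lost with the spike covariate (adjusted p = 0.155).

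With the inhibitor 18 of the 32 (56.3%) rose, 4 (12.5%) fell and 10 did not pass, against 25.6% and 19.6% of all genes. Their median was 0.24, against 0.09 over all genes. FLCN averaged 7.49 with the inhibitor and 8.89 in control cells, and fell by 1.40 on the log2 scale, 2.63-fold (adjusted p = 1.2e-05 in limma), or −0.76 as the mean of its probe sets. The partner of folliculin FNIP2, which slows the HSP90 ATPase, rose 1.51-fold. TOMM34, a co-chaperone of mitochondrial import, rose 1.54-fold (0.63, or 0.40 as the mean of its probe sets). NUDCD3 rose 1.52-fold on its brightest probe set but differed by 0.01 as the mean of its probe sets. HSF1 rose by 0.41 (adjusted p = 0.00119). HSP90B1 averaged 13.70 with the inhibitor and 13.52 in control cells, and its call at 0.18 (adjusted p = 0.0256) was lost when any of the 3 control replicates or inhibitor replicate 1 was left out, with adjusted p of up to 0.0847. The spike covariate also ended the calls of FNIP2, TOMM34, NUDCD3 and HSF1. Their differences with it were 0.51, 0.43, 0.52 and 0.56.

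**Figure D5:**
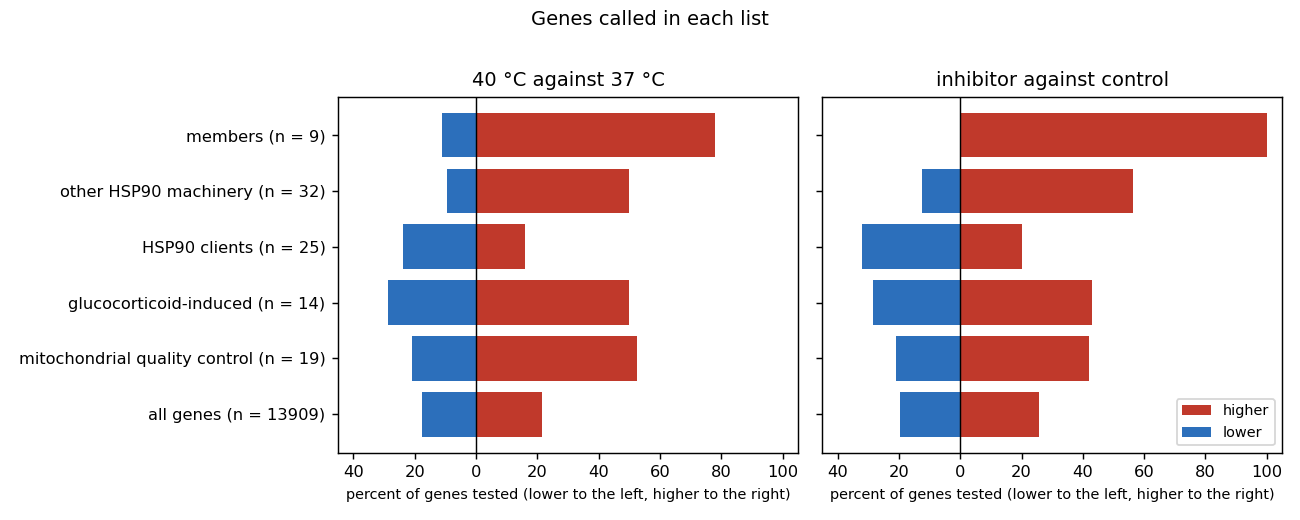
Percent of tested genes called higher (right of 0) and lower (left of 0) in the members, in 4 further lists and among all genes, for 40 °C against 37 °C and inhibitor against control. The members have the largest higher share in both panels, and the client list has more lower than higher calls in both. Members and lists were chosen with earlier results of these data known.

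Clients of HSP90 had calls in both directions. Of 30 listed clients 25 were tested, and at 40 °C 4 (16%) rose and 6 (24%) fell, against 21.6% and 17.7% of all genes, with a median of −0.05 against 0.01. These shares are near those of all genes. The cell cycle kinase CDK4 rose by 0.41, while JAK2, the kinase of cytokine receptors, fell by 0.46, the receptor kinase MET by 0.42 and CDK6 by 0.32 (−0.18 as the mean of its probe sets). With the inhibitor 5 clients (20%) rose and 8 (32%) fell, against 25.6% and 19.6% of all genes, with a median of 0.12 against 0.09. CDK6 rose 1.72-fold and WEE1, a mitotic inhibitor kinase, rose 1.58-fold, whereas the Src-family kinases LYN and SRC fell 1.77-fold and 1.58-fold.

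The glucocorticoid receptor gene NR3C1, a classical HSP90 client, averaged 10.65 at 40 °C and 10.48 at 37 °C. Its rise of 0.17 had an adjusted p of 0.0152 in limma, which became 0.0571 without 37 °C replicate 3 and 0.278 with the spike covariate. With the inhibitor NR3C1 averaged 10.05, against 10.25 in control cells, and fell by 0.20 (adjusted p = 0.0234). That call was lost when any of the 3 control replicates, or inhibitor replicate 1 or 3, was left out, with adjusted p of up to 0.0789, whereas the mean of the NR3C1 probe sets differed by −0.47 (adjusted p = 0.000563). FKBP5 is itself a textbook target of this receptor, so 15 other glucocorticoid-induced genes were examined, of which 14 were tested. At 40 °C 7 (50%) rose and 4 (28.6%) fell, against 21.6% and 17.7% of all genes, with a median of 0.10 against 0.01. The decoy receptor gene IL1R2 rose 3.05-fold, the scavenger receptor gene CD163 1.95-fold and NFKBIA 1.45-fold, whereas the metallothionein gene MT2A fell 1.66-fold (−0.73, or −0.48 as the mean of its probe sets). IL1R2 averaged 5.41 at 40 °C and 3.80 at 37 °C, the latter below the filter level of 4.48. It passed the filter through the groups where it is higher, so its fold rests on a value near the floor. With the inhibitor 6 (42.9%) rose and 4 (28.6%) fell, against 25.6% and 19.6% of all genes, with a median of 0.12 that was close to the 0.09 of all genes. DUSP1 and MT2A rose 1.55-fold and 1.54-fold, and GLUL and KLF9 fell 1.90-fold and 1.79-fold. As means of their probe sets DUSP1 differed by 0.36 and MT2A by 0.37, against 0.63 and 0.62 on the brightest.

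As a setting for TRAP1, 19 genes of mitochondrial protein quality control were tested. At 40 °C 10 (52.6%) rose and 4 (21.1%) fell, against 21.6% and 17.7% of all genes, with a median of 0.15 against 0.01. HSPE1, the partner of the mitochondrial chaperonin, rose 1.69-fold and the disaggregase gene CLPB rose 1.66-fold (0.73, or 0.33 as the mean of its probe sets). The protease gene OMA1 rose 1.40-fold, and CLPX, the unfoldase of the ClpP protease, fell 1.44-fold. With the inhibitor 8 (42.1%) rose and 4 (21.1%) fell, against 25.6% and 19.6% of all genes, with a median of 0.05 that lay below the 0.09 of all genes. DNAJA3, PHB1 and SPG7 rose 1.69-fold, 1.60-fold and 1.58-fold, and GRPEL2, a nucleotide exchange factor, fell 1.68-fold. DNAJA3 differed by 0.76, or by 0.49 as the mean of its probe sets. Apart from FLCN, each gene named here from the lists for its change with the inhibitor lost its call with the spike covariate. That fit, as said above, can hardly separate the groups from the spike level.

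The genes whose log2 levels over the 12 arrays were most like those of the chaperones were listed by Pearson r among the 13909 genes, as a description without a test. The arrays share their group differences, so such values are high for many genes. For HSP90AA1 they were HSP90AA4P (r = 0.961), TMEM184B (0.934) and BHLHE22 (0.934). HSP90AA4P is a near-identical pseudogene copy, and its probe set may read HSP90AA1 itself. For HSP90AB1 they were PDIA6 (0.987), CD36 (0.986) and HLX (0.986). For FKBP5 they were PAN3 (0.986), MT2A (0.986) and TBX18 (0.984). On their brightest probe sets these had calls lower at 40 °C than at 37 °C and higher with the inhibitor than in control cells, and the inhibitor calls were lost in all 3 with the spike covariate. As the mean of its probe sets TBX18 was called in neither comparison (differences −0.14 and 0.12, adjusted p = 0.0567 and 0.261), and PAN3 differed by −0.26 at 40 °C, against −0.62 on its brightest.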

How the data were processed

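Total RNA of 12 THP-1 samples was extracted with Trizol, biotin-labelled and hybridised to PrimeView arrays, per the labels' protocols. The authors deposited a table of log2 expression values; the unit was read from the values, with software, background correction and normalization not given in the sources used here. Groups were taken from titles and treatment labels.

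Gene symbols came from the platform's gene table: of 49395 probe sets, 44994 had 1 symbol, 1832 several and 2473 none apart from the 102 controls. Each gene took its brightest probe set (mean over 12 arrays) with 1 symbol, and stayed when this mean reached the 30th percentile (4.48). Each experiment was fitted alone with limma 3.58.1 in R 4.3.3 (lmFit, eBayes, no replicate block), with Benjamini-Hochberg adjustment over 13909 genes or 31682 probe sets and a threshold of 0.05. The fit was tested on simulated data with 50 genes changed at each size. Changes of 0.25 were called in 28% with the temperature spread and 8% with the inhibitor spread, and changes of 0.5 in 88% and 64%. Only 168 and 137 genes were called there, far fewer than in the data, so these shares do not carry over directly. Paralogue differences had exact two-sided permutation tests. Precision is limited by having 3 arrays per group. No arrays held identical values.

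The members and lists were chosen with earlier results of these data known. Named genes were the members, up to 4 called genes per list and comparison by smallest p, HSP90B1, HSF1 and NR3C1, and the 3 genes most like each of HSP90AA1, HSP90AB1 and FKBP5. ITGB1BP2 was added for the size of its difference and was not followed through the alternatives. Alternatives changed the filter, scaling, model, probe set choice and arrays included. Promoters came from RefSeq.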

Additional observations from a re-analysis of the deposited data

How the results depend on the processing

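No difference of a member or other named gene changed sign under any alternative run on its brightest probe set or on the mean of its probe sets. Single probe sets were not covered by this. With the inhibitor, the second STIP1 probe set and the faintest of PTGES3 differed by −0.24 and −0.23, against rises on their brightest. At 40 °C, 126 of 128 alternative values of the 8 called member genes kept their call, and 7 members higher and 1 lower held in every fit that left out an array. Member probe sets called lower numbered 4 without the filter on low values, against 2 with it, and those called higher 19 to 20 with an array left out. With the inhibitor, 119 of 144 kept their call and 25 lost it, in 8 genes. Leaving out an array gave 7 to 8 member genes higher, 8 to 15 probe sets higher and 0 to 1 lower. With the spike covariate 1 member gene stayed higher (9 without it), and limma called 0 probe sets higher and 0 lower (5 and 0 at an unadjusted p under 0.05). Array weights gave 20 probe sets higher, against 13. Replicate numbers did not pair the arrays: r of deviations of same-numbered arrays was −0.13, −0.10 and 0.23 by temperature and −0.19, −0.60 and −0.15 with the inhibitor, and not every array correlated best with its own number. The replicate block gave 8 probe sets higher and 0 lower with the inhibitor, and ended the calls of HSP90AA1 (adjusted p = 0.108) and CHORDC1 (0.121). Limma also called 0 probe sets lower without the filter and with median centring; with each of these and with the block, 1 was lower at an unadjusted p under 0.05. Leaving out an array moved the FKBP5 minus FKBP4 shift between −1.91 and −1.81 by temperature and between −0.93 and −0.81 with the inhibitor. The HSP90AA1 minus HSP90AB1 shift lay between 0.07 and 0.16 by temperature and between −0.47 and −0.41 with the inhibitor. As means of all probe sets, dim ones included, differences at 40 °C were 0.81 for FKBP4 and −0.30 for FKBP5, and with the inhibitor 0.69 for FKBP4 and 0.26 for FKBP5. Over all genes, the spike covariate left 958 higher and 1320 lower at 40 °C (3007 and 2465 without it) and 59 and 188 with the inhibitor (3567 and 2721), and array weights gave 5527 and 3552. Apart from the fits with fewer arrays, the cause was not tested.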
